A study of Homo sapiens with 12 samples.

Results

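The proteasome genes described here are all genes on the array whose symbol is PSMA, PSMB, PSMC, PSMD, PSME, PSMF or PSMG followed by a number. They were found by symbol among the probe sets that carry 1 gene name, which gave 45 genes with 51 probe sets, of 18377 genes with 19310 probe sets in all. PSMB8, PSMB9, PSMB10, PSME1 and PSME2, called the inducible members here, were set against the other 40. PSMC5, PSMD7 and PSMD13 were not analysed here.

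HT29, an established human colon adenocarcinoma line described by the submitters as sensitive to methotrexate, was profiled on Affymetrix human gene arrays as an untreated control, taken as 0 h, and after 8, 24 and 48 h with 70 nM methotrexate. Methotrexate is an antifolate that blocks dihydrofolate reductase. Each of the 4 groups had 3 arrays, which the titles call biological replicates. All 12 arrays came from cells of this single line with no other genetic change named in the labels, and the later times had no untreated arrays here, so treatment and time in culture cannot be told apart.

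The proteasome is the main protease of the cytosol and nucleus and degrades proteins tagged with ubiquitin. Its barrel-shaped core has outer rings of alpha subunits and inner rings of beta subunits, of which PSMB5, PSMB6 and PSMB7 carry the active sites, and a regulatory particle of PSMC and PSMD subunits unfolds the substrate. Interferons induce PSMB8, PSMB9 and PSMB10, which take the places of PSMB5, PSMB6 and PSMB7 in newly made cores (the immunoproteasome), and PSME1 and PSME2, which form an activator ring on the core. The immunoproteasome is known for cutting peptides that suit presentation on MHC class I molecules.

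The 5 inducible members are known as interferon targets, and the data below set them apart from the other members in direction, so their start regions are shown first. The windows are RefSeq promoter windows of GRCh38.p14, 300 bases each, from 250 before to 50 after the gene start. They lie at chr6:32843998-32844297 on the minus strand (PSMB8, 1 of 2 windows), chr6:32853942-32854241 on the plus strand (PSMB9), chr16:67936801-67937100 on the minus strand (PSMB10), chr14:24135944-24136243 on the plus strand (PSME1) and chr14:24146561-24146860 on the minus strand (PSME2). Capitals mark matches on either strand to the core of the interferon regulatory factor (IRF) element (GAAA, any 2 bases, GAAA), the interferon-gamma activated site (GAS), TTCNNNGAA, and the core of the antioxidant response element, TGACNNNGC, which the proteasome regulator NFE2L1 can bind.
PSMB8: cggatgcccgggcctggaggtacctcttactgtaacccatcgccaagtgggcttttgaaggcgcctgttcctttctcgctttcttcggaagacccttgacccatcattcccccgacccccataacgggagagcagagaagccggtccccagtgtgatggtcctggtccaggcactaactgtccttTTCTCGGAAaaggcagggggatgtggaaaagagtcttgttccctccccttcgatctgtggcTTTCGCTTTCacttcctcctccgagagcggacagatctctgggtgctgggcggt
PSMB9: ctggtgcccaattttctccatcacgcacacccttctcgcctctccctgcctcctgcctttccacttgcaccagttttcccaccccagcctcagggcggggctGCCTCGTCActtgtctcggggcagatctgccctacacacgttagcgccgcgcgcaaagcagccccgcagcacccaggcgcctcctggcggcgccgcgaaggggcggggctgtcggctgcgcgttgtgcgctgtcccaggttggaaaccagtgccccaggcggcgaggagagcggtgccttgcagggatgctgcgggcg
PSMB10: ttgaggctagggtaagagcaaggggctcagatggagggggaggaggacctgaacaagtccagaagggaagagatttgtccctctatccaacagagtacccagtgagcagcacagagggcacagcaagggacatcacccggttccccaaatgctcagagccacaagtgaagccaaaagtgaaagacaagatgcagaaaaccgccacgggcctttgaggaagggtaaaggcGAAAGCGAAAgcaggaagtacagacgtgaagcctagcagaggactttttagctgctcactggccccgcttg
PSME1: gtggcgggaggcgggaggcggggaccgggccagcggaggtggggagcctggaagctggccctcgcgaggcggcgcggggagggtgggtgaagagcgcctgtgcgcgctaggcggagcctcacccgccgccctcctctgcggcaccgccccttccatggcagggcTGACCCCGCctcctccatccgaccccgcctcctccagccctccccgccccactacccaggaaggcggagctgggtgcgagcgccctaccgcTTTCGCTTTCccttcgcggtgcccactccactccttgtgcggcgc
PSME2: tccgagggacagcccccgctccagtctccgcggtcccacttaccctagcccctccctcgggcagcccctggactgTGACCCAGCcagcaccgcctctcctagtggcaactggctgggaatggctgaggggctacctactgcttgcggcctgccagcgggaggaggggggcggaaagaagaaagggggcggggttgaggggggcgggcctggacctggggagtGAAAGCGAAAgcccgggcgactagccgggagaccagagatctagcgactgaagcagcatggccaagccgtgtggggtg

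The IRF core stood in 4 of the 6 windows of the inducible members, those of PSMB8 (the printed window), PSMB10, PSME1 and PSME2. It stood in 3 of the 41 windows of the other members, those of PSMA4, PSMB4 and PSMG4, and in 3.57% of all 35116 promoter windows. In these 4 inducible windows the match was the same 10 letters, GAAAGCGAAA or its reverse complement TTTCGCTTTC. As printed, its first base lay between positions -28 (PSME2) and 6 (PSME1), with the annotated start counted as 1. That exact sequence, looked for after the matches were seen, was in 5 of the 47 windows of member genes, counting PSMG4, and in 35 windows of all genes (0.0997%). PSMB9 had neither an IRF core nor a GAS in its window. PSMB8 alone of the 5 had a GAS, in the printed window. A GAS was in 7 of the 41 windows of other members and 7.66% of all windows. The other PSMB8 window, at chr6:32844630-32844929 on the minus strand and not printed, had no IRF core, GAS or TGACNNNGC. TGACNNNGC was in 3 inducible windows and 11 windows of other members, against 13.3% of all windows, and the NF-Y box CCAAT was in 1 and 17, against 34.6%. A window was given for 39 of the 45 members, and a match describes letters only. In the gene table PSMB8 lies between TAP2 and TAP1 on chromosome 6 and PSMB9 on the other side of TAP1, while EMC9 separates PSME1 from PSME2 on chromosome 14.

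Values below are log2 ratios to the median of the 3 control arrays, as deposited, so 1 unit is a doubling. Absolute levels are not in these values, and the levels of members cannot be compared with each other. The array also cannot tell fewer cells of a type from less RNA per cell. A fold change is a difference of group means in limma's linear model of all 12 arrays, the error with it is limma's moderated standard error (SE), n = 3 arrays per group, and calls were made at 0.05 after Benjamini-Hochberg adjustment over all 18377 genes. The median SD of a member between replicates was between 0.05 (control) and 0.07 (48 h). Replicate 3 of the 48 h group stood apart. Over the members it differed from the other 48 h arrays by a root mean square of 0.18 from each, against 0.06 to 0.12 for the other replicate pairs. Colon epithelial markers, whose levels cannot be read here, gave 2, 3 and 1 of 12 higher and 0 lower at 8, 24 and 48 h against control, or 16.7%, 25% and 8.33%, against 24.2%, 16.7% and 25.3% of all genes. The list's median lay between 0.02 and 0.04, but CEACAM5, an adhesion molecule of colon epithelium, rose by 0.50 at 8 h and 0.79 at 24 h (SE 0.07 each), and KRT20, a keratin of mature colon cells, by 0.53 at 24 h and 0.51 at 48 h (SE 0.05 each), which exceeds most changes of the proteasome genes. Of 12 leukocyte markers measured, 2, 2 and 1 were higher and 0 lower, the largest difference being that of CD68, a lysosomal protein (1.08 at 48 h, SE 0.06), while the list's median lay between 0.0008 and 0.02. Whether other cells had a part in the results was not tested.

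**Figure D1:**
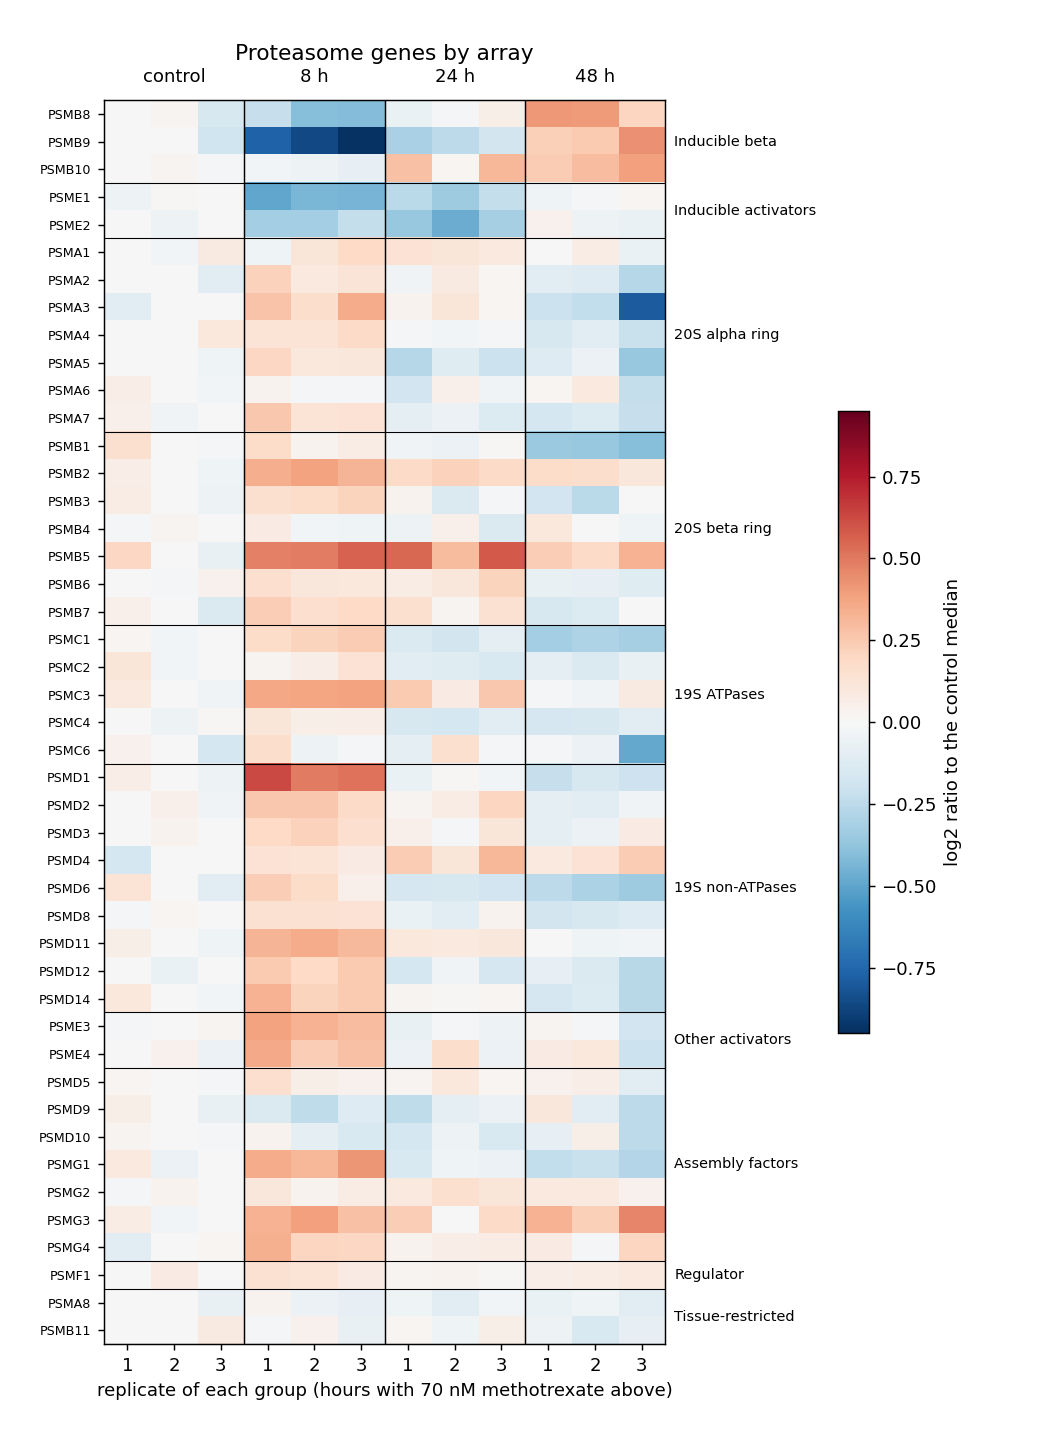
Log2 ratio to the control median (colour, blue below and red above) of the 45 proteasome genes (rows, grouped by role) on the 12 arrays (columns, 3 replicates per group, from control to 48 h with 70 nM methotrexate). The 5 inducible members at the top run from blue at 8 h (near white for PSMB10) to white or red at 48 h. Most rows under them are pale red at 8 h and pale blue at 48 h, and replicate 3 at 48 h has darker cells such as PSMA3 at -0.79.

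Across the 4 groups, proteasome genes changed often, mostly by less than 1.5-fold. At 8 h against control the median absolute change was 0.17 over the other 40 members and 0.088 over all genes. At 48 h against 8 h these medians were 0.27 and 0.095. limma's moderated F test called 34 of the 45 (75.6%), against 38.8% of all genes. It called 5 of 5 inducible members and 29 of the 40 others (72.5%). At least a 1.5-fold change was seen in 1 member at 8 h against control and in 0 members at 24 h or 48 h against control, but in 5 members at 48 h against 8 h. The 2 sets moved in opposite directions at 8 h and again at 48 h. On the 3 control arrays the mean of the inducible members minus the mean of the others averaged -0.03 ± 0.03 (SD, n = 3). With methotrexate it was -0.57 ± 0.01 after 8 h, -0.15 ± 0.07 after 24 h and 0.26 ± 0.05 after 48 h. The 8 h arrays (-0.58 to -0.57) and the 48 h arrays (0.23 to 0.32) lay on opposite sides of all control arrays (-0.05 to 0.0048), and the 24 h arrays (-0.23 to -0.10) lay below the control arrays too. These are descriptions with no test. With only the 3 catalytic subunits counted as inducible, the difference at 24 h against control turned from -0.13 to 0.0058.

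**Figure D2:**
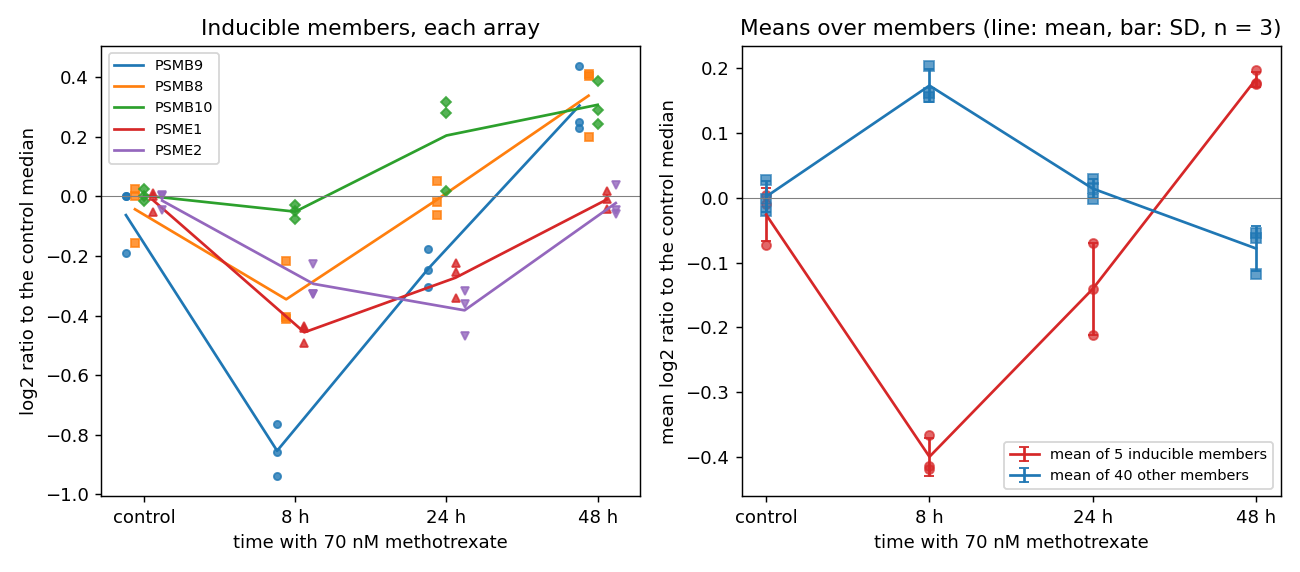
Left, log2 ratio to the control median of the 5 inducible members at 4 evenly spaced time points (points are arrays, lines join group means). Right, the mean of the 5 inducible members and of the 40 others on each array (points), with group mean and SD over 3 arrays. The inducible mean lies at -0.40 at 8 h and 0.18 at 48 h, and the mean of the others at 0.17 at 8 h and -0.08 at 48 h.

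The 8 h comparison with control shows the members early in exposure. Of the 45 members 23 were called, 19 higher and 4 lower, against 24.2% of all genes called, 12.1% higher and 12% lower. All 4 that fell were inducible members and all 19 that rose were among the other 40. The median log2 fold change was -0.30 over the 5 inducible members and 0.17 over the other 40, against 0.02 over all genes.

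PSMB9, the inducible subunit that takes the place of PSMB6, had -0.77, -0.86 and -0.94 on the 8 h arrays, against 0.00, 0.00 and -0.19 on the control arrays. All 8 h arrays lay far below the lowest control array, and PSMB9 fell by 0.79 (SE 0.07, adjusted p = 5.97e-06), or 1.73-fold. PSMB8, which takes the place of PSMB5, had -0.22, -0.41 and -0.41 at 8 h, against 0.00, 0.03 and -0.16 in control. The groups did not overlap, though the nearest arrays were close, and PSMB8 fell by 0.30 (SE 0.07, adjusted p = 0.00935). For 8 h and 24 h the share of all genes without overlap is not given here, so a lack of overlap there only describes the arrays. PSMB10, the counterpart of PSMB7, lay at -0.03, -0.05 and -0.08 at 8 h and 0.00, 0.03 and -0.02 in control, and its difference of -0.05 was not called (SE 0.07, adjusted p = 0.683).

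Both subunits of the interferon-inducible activator ring fell. PSME1 had -0.49, -0.43 and -0.44 on the 8 h arrays, against -0.05, 0.01 and 0.00 on the control arrays. Its 8 h arrays were tightly grouped and clear of control, and it fell by 0.44 (SE 0.05, adjusted p = 1.66e-05). PSME2 had -0.33, -0.33 and -0.23 at 8 h, against 0.00, -0.05 and 0.00 in control, again with no overlap. It fell by 0.28 (SE 0.05, adjusted p = 0.00172).

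The other activators went the opposite way at 8 h. PSME3, which forms a nuclear activator ring, had 0.38, 0.33 and 0.29 at 8 h, against -0.01, 0.00 and 0.03 in control, and rose by 0.33 (SE 0.06, adjusted p = 0.000767). PSME4, the large activator also called PA200, rose by 0.30 (SE 0.08, adjusted p = 0.0182). That call was lost without control replicate 3 (0.27, adjusted p = 0.0639) or without 8 h replicate 1 (0.26, adjusted p = 0.0677).

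Among the 7 constitutive beta subunits 3 rose at 8 h and 0 fell. PSMB5, the chymotrypsin-like catalytic subunit, had 0.48, 0.48 and 0.56 at 8 h, against 0.20, 0.00 and -0.07 in control. The control arrays spread more than the 8 h arrays without reaching them, and PSMB5 rose by 0.46 (SE 0.08, adjusted p = 0.00107). PSMB7, the trypsin-like subunit, rose by 0.22 (SE 0.06, adjusted p = 0.0176), a call lost without control replicate 3 (0.17, adjusted p = 0.0788) or without 8 h replicate 1 (0.20, adjusted p = 0.0608). PSMB6, the caspase-like subunit, differed by 0.12 and was not called (adjusted p = 0.103). PSMB2, a structural beta subunit with no active site, rose by 0.34 (SE 0.04, adjusted p = 0.0001).

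In the regulatory particle, 7 of 9 PSMD subunits outside the ATPase ring rose and 0 fell. The scaffold subunit PSMD1 had the highest fold change of all members. It had 0.63, 0.49 and 0.51 at 8 h, against 0.06, 0.00 and -0.05 in control. The 8 h arrays lay well clear of control, and PSMD1 rose by 0.54 (SE 0.05, adjusted p = 7.71e-06), or 1.45-fold. Of the 5 PSMC ATPases, which unfold the substrate, 2 rose. PSMC3, at 0.37, 0.37 and 0.39 on the 8 h arrays against 0.10, 0.00 and -0.04 in control, rose by 0.35 (SE 0.06, adjusted p = 0.000638). Of the 7 alpha subunits of the core 2 rose and 0 fell. Beside these counts by role, 12.1% of all genes were called higher at 8 h.

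Of the 7 assembly factors 3 rose at 8 h, all of them chaperones of the alpha ring. PSMG1, which works as a dimer with PSMG2, had 0.35, 0.32 and 0.42 at 8 h, against 0.09, -0.06 and 0.00 in control, and rose by 0.35 (SE 0.05, adjusted p = 0.000302). PSMG3 rose by 0.32 (SE 0.07, adjusted p = 0.00519) and its partner PSMG4 by 0.28 (SE 0.06, adjusted p = 0.00536). PSMG2 differed by 0.07 and was not called (adjusted p = 0.337), nor were PSMD5, PSMD9 and PSMD10, the chaperones of the base of the regulatory particle (0.09, -0.16 and -0.07, adjusted p = 0.334, 0.196 and 0.606). With the deposited ratios quantile normalized, 7 members were called at 8 h, 5 higher and 2 lower, the 2 being PSMB9 and PSME1. Of all genes 10.2% were called in those values. PSMB8 (-0.22, adjusted p = 0.207), PSME2 (-0.20, adjusted p = 0.168), PSMB5 (0.28, adjusted p = 0.25) and PSMG1 (0.30, adjusted p = 0.0558) missed the threshold in those values.

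At 24 h against control only 5 members were called, 3 higher and 2 lower, against 16.7% of all genes (8.69% higher and 8.02% lower). Under array weights the count was 17, 8 higher and 9 lower, and 33.1% of all genes were called. PSME2 fell by 0.37 (SE 0.05, adjusted p = 0.000347), with -0.36, -0.47 and -0.32 on the 24 h arrays, against 0.00, -0.05 and 0.00 in control. PSME1 fell by 0.26 (SE 0.05, adjusted p = 0.00166), with -0.25, -0.34 and -0.22 at 24 h, against -0.05, 0.01 and 0.00 in control. Both activator subunits were therefore still below every control array, a separation whose share among all genes at 24 h is not given here.

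The inducible catalytic subunits were not called at 24 h. PSMB9 had -0.30, -0.25 and -0.18 on the 24 h arrays and differed from control by -0.18 (SE 0.07, adjusted p = 0.123), PSMB8 had -0.06, -0.02 and 0.05 and differed by 0.03 (adjusted p = 0.843), and PSMB10 had 0.28, 0.02 and 0.32 and differed by 0.20 (adjusted p = 0.0707). PSMB9 passed without control replicate 3 (-0.24, adjusted p = 0.0456). PSMB10 passed without 24 h replicate 2, its low array (0.29, adjusted p = 0.00285), and without 48 h replicate 3 (0.20, adjusted p = 0.0472). Under array weights PSMB9 was called lower (-0.22, adjusted p = 0.00623) and PSMB10 higher (0.24, adjusted p = 0.00213).

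PSMB5 had 0.54, 0.30 and 0.58 at 24 h and rose by 0.43 (SE 0.08, adjusted p = 0.00275), PSMD4, a ubiquitin receptor of the regulatory particle, by 0.28 (SE 0.07, adjusted p = 0.0106) and PSMB2 by 0.18 (SE 0.04, adjusted p = 0.0127). The PSMD4 call was lost without control replicate 1 (0.22, adjusted p = 0.0525) or 24 h replicate 3 (0.23, adjusted p = 0.0575), and that of PSMB2 without control replicate 3 (0.16, adjusted p = 0.0504). PSMB6 (0.12, adjusted p = 0.103), PSMB7 (0.14, adjusted p = 0.169), PSME3 (-0.05, adjusted p = 0.665) and PSME4 (0.03, adjusted p = 0.894) were not called. The count was 10, 5 higher and 5 lower, without 48 h replicate 3, which enters only through the pooled spread, 8 (3 higher and 5 lower) with each array centred on its median, and 1 (0 higher and 1 lower, PSME2) after quantile normalization. Quantile normalization called 8.6% of all genes at 24 h against control. Here and below, counts without single arrays or with centring have no share of all genes beside them.

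At 48 h against control 17 members were called, 6 higher and 11 lower, against 25.3% of all genes called, 13% higher and 12.3% lower. The direction of the sets was the opposite of that at 8 h, with 3 inducible members higher and 0 lower, and 3 of the other 40 higher and 11 lower. The median was 0.30 over the inducible members and -0.08 over the others, against 0.01 over all genes.

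PSMB8 had 0.41, 0.40 and 0.20 on the 48 h arrays, against 0.00, 0.03 and -0.16 on the control arrays. Every 48 h array was above every control array, and PSMB8 rose by 0.38 (SE 0.07, adjusted p = 0.002). PSMB9, at 0.23, 0.25 and 0.44 against 0.00, 0.00 and -0.19 in control, rose by 0.37 (SE 0.07, adjusted p = 0.00215). PSMB10, at 0.24, 0.29 and 0.39 against 0.00, 0.03 and -0.02 in control, rose by 0.30 (SE 0.07, adjusted p = 0.00577). Thus the 3 inducible catalytic subunits ended above control, each without overlap, a separation that 17.9% of all genes showed.

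The activator subunits ended at the control level within their error. PSME1 had -0.04, -0.01 and 0.02 at 48 h and differed by 0.0023 (95% interval -0.10 to 0.10, adjusted p = 0.983). PSME2 had 0.04, -0.05 and -0.06 and differed by -0.0080 (95% interval -0.12 to 0.11, adjusted p = 0.948). PSME3 (-0.06, adjusted p = 0.51) and PSME4 (-0.0023, adjusted p = 0.991) were not called at 48 h either. The signs of these 4 small differences changed under some settings.

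Among the other members that rose at 48 h, PSMG3 had 0.33, 0.22 and 0.46, against 0.07, -0.02 and 0.00 in control, and rose by 0.32 (SE 0.07, adjusted p = 0.00434). PSMD4 rose by 0.21 (SE 0.07, adjusted p = 0.0291) and PSMB2 by 0.14 (SE 0.04, adjusted p = 0.0354). The PSMD4 call was lost without control replicate 1, 48 h replicate 2 or 48 h replicate 3 (0.16 to 0.22, adjusted p = 0.0553 to 0.135), and the PSMB2 call without any of control replicates 2 and 3, 24 h replicate 1 and 48 h replicates 1 and 2 (0.12 to 0.14, adjusted p = 0.0509 to 0.122). PSMB5 was not called (0.21, adjusted p = 0.0913) but passed without control replicate 1 (0.28, adjusted p = 0.0285) or 24 h replicate 2 (0.21, adjusted p = 0.0451). PSMB6 (-0.10, adjusted p = 0.176) and PSMB7 (-0.06, adjusted p = 0.561) were not called.

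Subunits of the core and of the regulatory particle and 1 assembly factor fell at 48 h. PSMB1, a structural beta subunit, had -0.35, -0.36 and -0.41, against 0.16, 0.00 and -0.01 in control, and fell by 0.42 (SE 0.06, adjusted p = 9.72e-05). PSMC1, an ATPase of the base, had -0.32, -0.29 and -0.32, against 0.02, -0.03 and 0.00 in control, and fell by 0.31 (SE 0.04, adjusted p = 0.000161). Both sets of 48 h arrays were tight and clear of control.

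PSMD6 of the lid fell by 0.31 (SE 0.06, adjusted p = 0.0027), PSMG1 by 0.25 (SE 0.05, adjusted p = 0.00312) and PSMD14, the deubiquitinase of the lid, by 0.21 (SE 0.05, adjusted p = 0.00984). Without control replicate 1 the PSMD14 difference was -0.17 (adjusted p = 0.0504). The alpha subunit PSMA3 fell by 0.37 (SE 0.12, adjusted p = 0.0373), with -0.21, -0.23 and -0.79 on the 48 h arrays, against -0.11, 0.00 and 0.00 in control. That value rests largely on replicate 3, without which the difference was -0.18 (adjusted p = 0.051), and the call was also lost without any control replicate or 24 h replicate 1 (adjusted p = 0.0505 to 0.108). PSMC4, another ATPase, was called at -0.13 (adjusted p = 0.0449) and missed the threshold with the replicate number as a block (adjusted p = 0.056) and without any 1 of 10 arrays, all but 8 h replicate 1 and 48 h replicate 3 (-0.15 to -0.12, adjusted p = 0.0514 to 0.121).

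By role, 4 of 9 PSMD subunits outside the ATPase ring, 3 of 7 alpha subunits, 2 of 5 ATPases, 1 of 7 constitutive beta subunits and 1 of 7 assembly factors fell at 48 h against control. Of all genes 12.3% were called lower in this comparison, so the counts of 1 of 7 were near that share. Without 48 h replicate 3, 3 inducible members and 2 others rose and 10 others fell. Without control replicate 1 the count was 11, 6 higher and 5 lower, and after quantile normalization it was 2, 0 higher and 2 lower (PSMB1 and PSMC1). Quantile normalization called 9.1% of all genes at 48 h against control. The inducible PSMB8 (0.30, adjusted p = 0.0747), PSMB9 (0.32, adjusted p = 0.0685) and PSMB10 (0.20, adjusted p = 0.132) then missed the threshold.

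At 24 h against 8 h, 23 members were called, 4 higher and 19 lower, against 19.4% of all genes, 9.99% higher and 9.4% lower. The 4 that rose were inducible members. PSMB9 was higher at 24 h by 0.61 (SE 0.07, adjusted p = 7.22e-05), PSMB8 by 0.34 (SE 0.07, adjusted p = 0.00606), PSMB10 by 0.26 (SE 0.07, adjusted p = 0.0202) and PSME1 by 0.18 (SE 0.05, adjusted p = 0.0129). PSME2 was not called (-0.09, adjusted p = 0.326), so PSME1 and PSME2 differed in their calls, a difference that was not itself tested.

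The PSMB10 call was lost without any of 8 h replicates 2 and 3 and 24 h replicates 1 and 3 (0.20 to 0.26, adjusted p = 0.0567 to 0.101). The PSME1 call was lost without 24 h replicate 1 or 3 (0.17 and 0.16, adjusted p = 0.0523 and 0.0636). The largest falls were those of PSMD1 (-0.57, SE 0.05, adjusted p = 8.15e-06), PSMG1 (-0.44, SE 0.05, adjusted p = 7.1e-05), PSME3 (-0.38, SE 0.06, adjusted p = 0.000371), PSMD12 of the lid (-0.35), PSMC1 (-0.34) and the alpha subunit PSMA5 (-0.33). PSMB5, PSMB6 and PSMB7 differed by -0.03, 0.01 and -0.09 and were not called, and PSME4 fell by 0.27 (adjusted p = 0.0348), a call lost without any 8 h replicate or 24 h replicates 1 or 3 (-0.30 to -0.23, adjusted p = 0.0534 to 0.134). The count was 15 without 24 h replicate 3 and 7 after quantile normalization, 1 higher (PSMB9) and 6 lower, with 7.91% of all genes called.

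At 48 h against 24 h, 9 members were called, 4 higher and 5 lower, against 10.1% of all genes, 5.26% higher and 4.86% lower. Again the 4 that rose were inducible members. PSMB9 rose by 0.55 (SE 0.07, adjusted p = 0.000456), PSME2 by 0.36 (SE 0.05, adjusted p = 0.000933), PSMB8 by 0.35 (SE 0.07, adjusted p = 0.0105) and PSME1 by 0.26 (SE 0.05, adjusted p = 0.00323). PSMB10 differed by 0.10 and was not called (adjusted p = 0.471).

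The 5 that fell were PSMA3 (-0.47, adjusted p = 0.0271), PSMB1 (-0.35, adjusted p = 0.00166), PSMB6 (-0.22, adjusted p = 0.0108), PSMD14 (-0.20, adjusted p = 0.0274) and PSMC1 (-0.18, adjusted p = 0.019). Without 24 h replicate 3 only PSMB1 of these 5 was still called, and 5 members were called in all. The adjusted p was then 0.0683 for PSMA3, 0.0536 for PSMB6, 0.0832 for PSMD14 and 0.0873 for PSMC1. Without 48 h replicate 3 the PSMA3 difference was -0.27 (adjusted p = 0.0135). The others missed the threshold without further arrays too, PSMA3 and PSMC1 without 24 h replicate 1 (adjusted p = 0.0714 and 0.061) and PSMD14 without any of 5 arrays (adjusted p = 0.0515 to 0.0852). PSMA3 also missed it without 24 h replicate 2 (adjusted p = 0.0798) and PSMC1 without 48 h replicate 1 (adjusted p = 0.0603). PSMB5 (-0.23, adjusted p = 0.114), PSMB7 (-0.20, adjusted p = 0.0603), PSME3 (-0.01) and PSME4 (-0.03) were not called. After quantile normalization 1 member was called, PSMB9, which was higher, with 1% of all genes called. Under array weights 26 were called, 7 higher and 19 lower, with 32.1% of all genes.

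The comparison of 48 h with 8 h, whose fold changes do not use the control arrays, gave the clearest separation. The control arrays enter its SE and calls through the pooled spread. Of the 45 members 31 were called, 5 higher and 26 lower, against 29.7% of all genes called, 15.3% higher and 14.4% lower. All 5 inducible members rose, and 26 of the other 40 fell while 0 rose. The medians were 0.45 and -0.27, against -0.01 over all genes.

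PSMB9 was 2.23-fold higher at 48 h than at 8 h (1.16, SE 0.07, adjusted p = 1.36e-07) and was the 1 member to change at least 2-fold. PSMB8 was 1.61-fold higher (0.68, SE 0.07, adjusted p = 1.38e-05), PSME1 differed by 0.45 (SE 0.05, adjusted p = 8.94e-06), PSMB10 by 0.36 (SE 0.07, adjusted p = 0.00145) and PSME2 by 0.27 (SE 0.05, adjusted p = 0.00145). For each of the 5 the 48 h arrays all lay above the 8 h arrays, as in 18.3% of all genes.

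PSMD1 had -0.22, -0.15 and -0.20 at 48 h, against 0.63, 0.49 and 0.51 at 8 h. It fell by 0.73 (SE 0.05, adjusted p = 3.14e-07), the largest fall of any member. PSMA3 fell by 0.67 (SE 0.12, adjusted p = 0.000778), PSMG1 by 0.60 (SE 0.05, adjusted p = 2.05e-06), PSMC1 by 0.52 (SE 0.04, adjusted p = 1.34e-06), PSMB1 by 0.47 (SE 0.06, adjusted p = 2.92e-05) and PSMD14 by 0.45 (SE 0.05, adjusted p = 2.6e-05). The constitutive catalytic subunits fell less, PSMB7 by 0.29 (adjusted p = 0.00285), PSMB5 by 0.26 (adjusted p = 0.03) and PSMB6 by 0.21 (adjusted p = 0.00362). PSME3 fell by 0.39 (adjusted p = 0.000124) and PSME4 by 0.30 (adjusted p = 0.0135). The PSMB5 call was lost without any 8 h replicate or 48 h replicates 1 or 2 (-0.27 to -0.23, adjusted p = 0.053 to 0.107), and that of PSME4 without 8 h replicate 1 (-0.27, adjusted p = 0.0549).

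By role, the falls took in 8 of 9 PSMD subunits outside the ATPase ring, 6 of 7 constitutive beta subunits, 5 of 7 alpha subunits, 4 of 5 ATPases, both of PSME3 and PSME4, and 1 of 7 assembly factors. Of all genes 14.4% were called lower in this comparison, so the share of the assembly factors (14.3%) was at the background. PSMG3 was as high at 48 h as at 8 h within its error (0.0061, 95% interval -0.15 to 0.16). PSMG2 (0.0028), PSMF1, a regulator of the core also called PI31 (-0.04), and the base chaperones PSMD5, PSMD9 and PSMD10 (-0.09, 0.09 and -0.02) were not called in this or any other comparison. Nor were PSMA8, the alpha subunit of testis, and PSMB11, the beta subunit of the thymus, which differed by -0.04 and -0.07. Without 48 h replicate 3 the same comparison gave 32 calls, 5 higher and 27 lower, and after quantile normalization 22, 4 higher and 18 lower, PSME2 missing the threshold (0.23, adjusted p = 0.0829). Quantile normalization called 14.6% of all genes in this comparison.

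**Figure D3:**
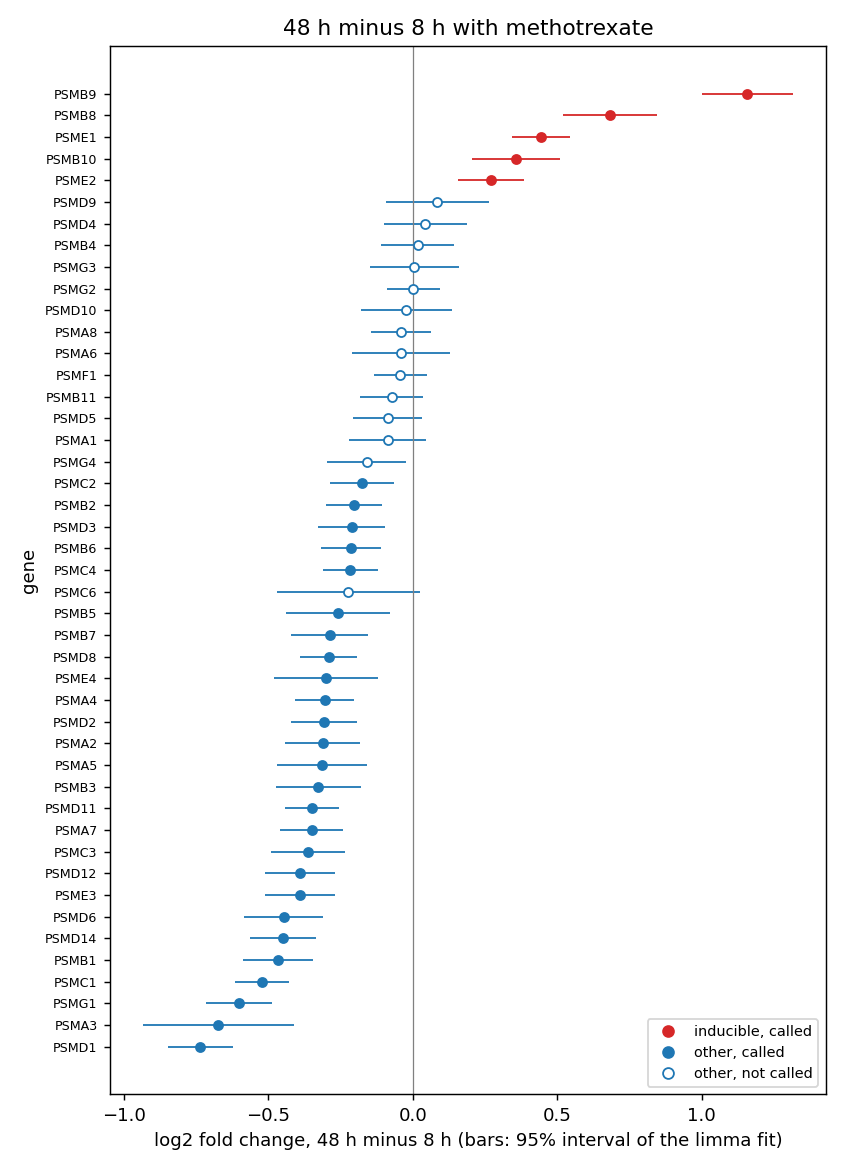
Log2 fold change at 48 h minus 8 h with 70 nM methotrexate (horizontal axis) for the 45 proteasome genes (vertical axis, ordered by value), with the 95% interval of the limma fit. The 5 inducible members (red) all lie to the right of 0, from 0.27 for PSME2 to 1.16 for PSMB9, and 26 others (filled blue) lie to the left, down to -0.73 for PSMD1.

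Because the inducible subunits replace named partners in the core, each pair was also compared within an array. PSMB9 minus PSMB6 averaged -0.07 ± 0.14 in control and, with methotrexate, -0.98 ± 0.06 after 8 h, -0.37 ± 0.02 after 24 h and 0.39 ± 0.14 after 48 h (SD, n = 3). PSMB8 minus PSMB5 averaged -0.09 ± 0.11, -0.85 ± 0.14, -0.48 ± 0.15 and 0.09 ± 0.19 in the same groups. PSMB10 minus PSMB7 averaged 0.03 ± 0.08, -0.24 ± 0.03, 0.10 ± 0.09 and 0.40 ± 0.02.

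All 3 pairs were lowest at 8 h and highest at 48 h. For PSMB9 and PSMB10 the 48 h arrays lay above all control arrays, while for PSMB8 they ran from -0.13 to 0.22 and overlapped the control arrays, which ran from -0.20 to 0.03. The pair differences are relative to control and do not give the share of either subunit in the core.

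Some members had several probe sets. PSMB8 and PSMB9 had 3 probe sets each, which differed from each other by at most 0.007 and 0.018 on any array, and the 2 of PSMC1 by at most 0.015. The lowest correlation over the 12 arrays was 0.99995 for PSMB8 and PSMB9 and 0.999 for PSMC1. Whether these probe sets share probes was not checked, so their closeness is not read as a check of the measurement. The 2 of PSMC6, an ATPase, differed by up to 0.29, and PSMC6 was not called in any of the 6 comparisons between groups.

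Genes known to act on or beside the inducible members were taken from lists chosen with earlier results of these data known. In the list of interferon control genes, 1 of 12 measured rose and 4 fell at 8 h, 1 rose and 2 fell at 24 h, and 1 rose and 1 fell at 48 h. These are 41.7%, 25% and 16.7% called, against 24.2%, 16.7% and 25.3% of all genes at the same times, so the share at 48 h was below the background. IRF9, a part of the factor that answers type I interferon, had 0.00, 0.12 and 0.00 on the control arrays, -1.60, -1.64 and -1.63 at 8 h, -0.92, -0.88 and -0.71 at 24 h and -0.45, -0.52 and -0.32 at 48 h. It differed from the control arrays by -1.67 at 8 h (SE 0.07, adjusted p = 5.04e-09), -0.88 at 24 h (adjusted p = 1.53e-06) and -0.47 at 48 h (adjusted p = 0.000194). IRF9 was thus below control at every time, including 48 h. Whether IRF9 had a part in the changes of the inducible members was not tested.

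IRF1, a factor known to drive PSMB9 and TAP1, had 0.03, 0.00 and -0.02 in control, -0.75, -0.66 and -0.82 at 8 h, -0.22, -0.17 and -0.10 at 24 h and -0.14, -0.07 and 0.06 at 48 h. It fell by 0.75 at 8 h (SE 0.06, adjusted p = 2.04e-06), with no overlap, and was not called at 24 h (-0.17, adjusted p = 0.0823) or 48 h (-0.05, adjusted p = 0.653). Of the interferon-gamma receptor chains, IFNGR1 rose at all 3 times (0.40, 0.42 and 0.51, SE 0.05 each) and IFNGR2 fell at 8 h (-0.35) and 24 h (-0.19). JAK1, a kinase of the receptors, fell at 8 h (-0.30, adjusted p = 0.016). The JAK1 call did not hold without control replicate 2 or 8 h replicates 2 or 3 (-0.28 to -0.26, adjusted p = 0.0607 to 0.0748), and the IFNGR2 call at 24 h without control replicate 1 or 24 h replicates 1 or 3 (-0.20 to -0.17, adjusted p = 0.0528 to 0.0866). Quantile normalization ended the same 2 calls (adjusted p = 0.0745 and 0.0956).

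Among 9 measured genes of peptide loading, 1 rose and 3 fell at 8 h, 2 rose and 1 fell at 24 h, and 5 rose and 0 fell at 48 h. The shares were 44.4%, 33.3% and 55.6%, against 24.2%, 16.7% and 25.3% of all genes. TAP1, the peptide transporter chain next to PSMB9, had 0.00, 0.19 and -0.08 in control, -0.57, -0.80 and -0.83 at 8 h, -0.55, -0.51 and -0.44 at 24 h and -0.14, -0.15 and 0.00 at 48 h. It fell by 0.77 at 8 h (SE 0.08, adjusted p = 1.94e-05) and 0.54 at 24 h (adjusted p = 0.000529) and was not called at 48 h (-0.13, adjusted p = 0.292). Its 24 h arrays all lay below its control arrays. TAPBPL, a peptide editor, fell at 8 h (-0.42) and rose at 24 h (0.37) and 48 h (0.81, SE 0.05, adjusted p = 1.73e-07). TAPBP, the tapasin that links TAP1 to class I molecules, fell at 8 h (-0.31) and rose at 48 h (0.39), when ERAP1, which trims peptides (0.39), the chaperone CALR (0.23) and B2M, the class I light chain (0.22, adjusted p = 0.00611), were also higher. After quantile normalization TAPBP, ERAP1, CALR and B2M missed the threshold at 48 h (0.24, 0.24, 0.16 and 0.12, adjusted p = 0.0722, 0.341, 0.121 and 0.375), as did TAPBPL at 24 h (0.27, adjusted p = 0.0908).

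**Figure D4:**
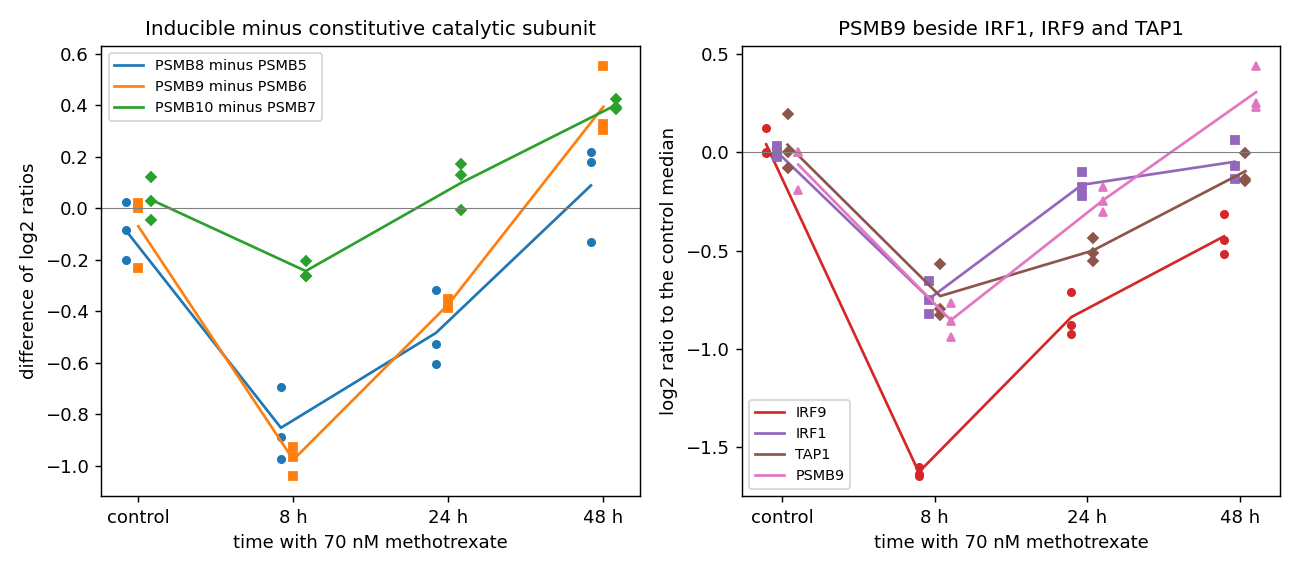
Left, difference of log2 ratios between each inducible catalytic subunit and its constitutive counterpart on each array (points) with group means (lines), at 4 evenly spaced time points. Right, log2 ratios to the control median of IRF9, IRF1, TAP1 and PSMB9 in the same way. All 3 pairs are lowest at 8 h, and at 48 h PSMB9 lies above 0 while IRF9 lies between -0.52 and -0.32.

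Factors that work with the other members were counted in the same way. Of 12 measured proteasome-associated factors, 4 rose and 1 fell at 8 h, 3 rose and 1 fell at 24 h, and 2 rose and 6 fell at 48 h, or 41.7%, 33.3% and 66.7% called, against 24.2%, 16.7% and 25.3% of all genes. UCHL5, a deubiquitinase of the regulatory particle, rose by 0.46 at 8 h (SE 0.09, adjusted p = 0.00243) and fell by 0.36 at 48 h (adjusted p = 0.0112), where its arrays were at -0.23, -0.24 and -0.67, replicate 3 being the lowest. Without that array the UCHL5 difference at 48 h was -0.21 (adjusted p = 0.00559). ADRM1, the ubiquitin receptor that binds UCHL5, rose at 8 h (0.25) and 24 h (0.31), and USP14, another deubiquitinase, at 8 h (0.24). AKIRIN2, which brings the proteasome into the nucleus, fell at all 3 times (-0.31, -0.33 and -0.43, SE 0.05 each). ZFAND2A, a stress-induced proteasome-binding protein, rose at 24 h (0.56) and 48 h (0.66). SEM1, a small lid subunit (-0.29), and ECPAS, an adaptor also called ECM29 (-0.27), fell at 48 h. The ADRM1 call was lost at 8 h without any control replicate or 8 h replicates 2 or 3 (0.22 to 0.25, adjusted p = 0.0542 to 0.0936) and at 24 h without 24 h replicate 3 (0.24, adjusted p = 0.0563), and the ECPAS call without control replicate 2 (-0.24, adjusted p = 0.0544). After quantile normalization ADRM1 at 8 h (0.21, adjusted p = 0.0925), USP14 at 8 h (0.22, adjusted p = 0.074) and ECPAS at 48 h (-0.23, adjusted p = 0.0927) missed the threshold.

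Of 9 measured genes of the NFE2L1 axis, which raises proteasome genes when the proteasome is impaired, 1 rose and 4 fell at 8 h, 1 rose and 2 fell at 24 h, and 2 rose and 2 fell at 48 h, or 55.6%, 33.3% and 44.4% called, against 24.2%, 16.7% and 25.3% of all genes. NFE2L1 itself fell by 0.23 at 8 h (SE 0.05, adjusted p = 0.00395). Whether NFE2L1 had a part in the changes of the members was not tested. The related NFE2L2 was lower at all 3 times (-0.26, -0.28 and -0.43, SE 0.09 each), and KEAP1, its adaptor for degradation, was higher at 8 h (0.27) and 24 h (0.38). The KEAP1 call at 8 h did not hold without control replicate 3 (0.20, adjusted p = 0.0729) or 8 h replicate 1 (0.21, adjusted p = 0.0716). That of NFE2L2 was lost at 8 h without any control replicate, 8 h replicates 2 or 3, 24 h replicate 3 or 48 h replicate 2 (adjusted p = 0.0503 to 0.142), and at 24 h without any of these or 24 h replicate 1 (adjusted p = 0.0523 to 0.19). After quantile normalization the calls of NFE2L1 (-0.19, adjusted p = 0.136) and NFE2L2 (-0.24, adjusted p = 0.0676) at 8 h and of KEAP1 at 8 h (0.22, adjusted p = 0.309) and 24 h (0.36, adjusted p = 0.083) were lost. Among 13 measured genes of ubiquitin supply and shuttling, 7 rose and 1 fell at 8 h, 3 rose and 0 fell at 24 h, and 2 rose and 1 fell at 48 h. The shares were 61.5%, 23.1% and 23.1%, against 24.2%, 16.7% and 25.3% of all genes, so that at 48 h was near the background. At 8 h UBQLN4, a shuttle factor, rose by 0.43 (SE 0.08, adjusted p = 0.000919), UFD1, a cofactor of the segregase VCP, by 0.39 (SE 0.06, adjusted p = 0.000239) and VCP itself by 0.24 (SE 0.04, adjusted p = 0.00165), while UBXN1, another VCP cofactor, fell by 0.28 (SE 0.07, adjusted p = 0.0143). The UBXN1 call did not hold without control replicate 2 or 8 h replicates 2 or 3 (-0.26 to -0.23, adjusted p = 0.0575 to 0.0712). After quantile normalization UBQLN4 (0.27, adjusted p = 0.169), UFD1 (0.25, adjusted p = 0.168), VCP (0.18, adjusted p = 0.0985) and UBXN1 (-0.26, adjusted p = 0.116) all missed the threshold at 8 h.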

How the data were processed

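HT29 cells were profiled in 4 groups of 3 arrays, assigned from the sample titles, which give the group, the time and a biological replicate number. The authors deposited log2 values, 1 for each probe set on each array. RMA (background correction, normalization between arrays and a summary of each probe set) and the build hg19 are named per the submitters' processing notes, neither with a version. In all 28869 probe sets the deposited log2 values of the 3 control arrays had a median of 0, so each is a ratio to control and a difference between groups is unaffected. For this centring the method was not given in the sources used here. Base 2 was assumed for the logarithm because RMA uses it. Such values hold no absolute level or signal over background, and the number of arrays limits the precision.

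Probe sets with 1 gene symbol in the platform annotation (19310) were averaged per gene. 1752 with several genes and 7807 unnamed were left out. All 12 arrays entered 1 limma model with a mean per group (limma 3.58.1 in R 4.3.3, lmFit, contrasts.fit and eBayes, 8 residual and 4.71 prior degrees of freedom). Tests were two-sided, with Benjamini-Hochberg adjustment over 18377 genes in each of 6 comparisons, which share arrays, and the steps were tested on simulated data. The spread is pooled over groups. Promoter motifs were searched with pandas 2.3.3 in Python 3.11.15, and numpy 2.4.6 and matplotlib 3.10.9 served for the figures.

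The members and lists were chosen with earlier results of these data known. Named by rule were the 5 inducible members and PSMB5, PSMB6, PSMB7, PSME3 and PSME4, up to 6 called rises and 6 called falls per comparison, the assembly factors, PSMF1, PSMA8 and PSMB11, and up to 4 called genes of each partner list per comparison with control (or, with fewer than 2 called, the 2 of smallest p), not all printed. B2M was chosen after its values were seen, as were PSMC4 and PSMC6, which are named for the block and for their probe sets. The replicate numbers were checked as pairs. The deviations of same-numbered arrays from their group means correlated at -0.45 to 0.47, and all 3 numbers were over 0.1 in 1 of 6 group pairs, control with 48 h (0.35, 0.12 and 0.46). Alternatives were the replicate block, array weights, centring, quantile normalization, a robust prior, fits of 2 groups, a stricter threshold, other uses of the probe sets, other definitions of the set difference and leaving out each array.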

Additional observations from a re-analysis of the deposited data

Results flagged for a closer look

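A member is listed here where its change from control at 8 h and its change at 48 h were both called and had opposite signs, and the difference between them, 48 h minus 8 h, was itself called by limma (Benjamini-Hochberg adjusted). With opposite signs that difference exceeds either change and has the same SE. Its call therefore follows almost wholly from the other calls and is no separate support. The rule was met by 8 members. How many of all genes meet it was not counted. PSMB9 (48 h minus 8 h, 1.16) and PSMB8 (0.68), both inducible catalytic subunits, were below control at 8 h and above it at 48 h. The other 6 were above control at 8 h and below it at 48 h. These were the scaffold PSMD1 (-0.73), the alpha ring chaperone PSMG1 (-0.60), the ATPase PSMC1 (-0.52), the deubiquitinase PSMD14 (-0.45), the alpha subunit PSMA7 (-0.35) and the lid subunit PSMD8 (-0.29). For 4 of these a call against control was lost when single arrays were left out. PSMD8 lost its 8 h call without any control or 8 h replicate or 24 h replicate 1 (adjusted p = 0.0502 to 0.103) and its 48 h call without any control replicate or 48 h replicates 1 or 2 (adjusted p = 0.0569 to 0.0996). PSMA7 lost its 8 h call without control replicates 2 or 3 or 8 h replicate 1 (adjusted p = 0.0621 to 0.101) and its 48 h call without control replicate 1 or 48 h replicate 3 (adjusted p = 0.0776 and 0.0563). PSMD1 and PSMD14 lost their 48 h calls without control replicate 1 (adjusted p = 0.0605 and 0.0504). After quantile normalization each of the 8 lost a call against control, so none met the rule in that setting. PSMB9, PSMB8 and PSMD1 lost their 48 h calls (adjusted p = 0.0685, 0.0747 and 0.106). PSMC1, PSMG1, PSMD14, PSMA7 and PSMD8 lost their 8 h calls (adjusted p = 0.106, 0.0558, 0.226, 0.284 and 0.434).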

How the results depend on the processing

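The count at 48 h against 8 h was 31 members, 29 to 32 when single arrays were left out and 22 to 34 under the other settings. Leaving out single arrays gave 17 to 26 members at 8 h, 4 to 10 at 24 h and 11 to 17 at 48 h against control, 15 to 26 at 24 h against 8 h, 5 to 11 at 48 h against 24 h and 31 to 34 in the F test. Under the same omissions the inducible minus other difference against control ran from -0.56 to -0.53 at 8 h, -0.16 to -0.09 at 24 h and 0.26 to 0.31 at 48 h. Quantile normalization gave 7, 1 and 2 members at 8, 24 and 48 h against control, 7 at 24 h against 8 h, 1 at 48 h against 24 h, 17 in the F test and differences of -0.41 at 8 h and 0.24 at 48 h. Of all genes it called 10.2%, 8.6% and 9.1% at 8, 24 and 48 h against control. The shares were 7.91% at 24 h against 8 h and 1% at 48 h against 24 h. The 1 and 2 of 45 members called at 24 and 48 h against control were thus below the share of all genes. Quantile normalization equalizes the SD over genes of control arrays (0.06 to 0.09 before) and treated arrays (0.21 to 0.31), and by this the median SD of a gene between control replicates went to 0.16, against 0.06 without it. Array weights gave 17 at 24 h against control and 26 at 48 h against 24 h, and centring gave 8 at 24 h against control. Fits of 2 groups, with fewer samples, gave 11 at 48 h against control and 5 at 48 h against 24 h. A threshold of 0.01 gave 3 at 24 h and 10 at 48 h against control, 13 at 24 h against 8 h and 4 at 48 h against 24 h. With only PSMB8, PSMB9 and PSMB10 as inducible, the difference was 0.0058 at 24 h, reversed, and 0.43 at 48 h, with PSME1 and PSME2 left out of the mean. Over medians it was -0.22 at 24 h. The cause of the other moves was not tested. Outside the main fit, the share of all genes was counted only under array weights and quantile normalization, and not for their F tests. Whether the other counts, including those with the replicate block, moved with all genes can therefore not be read here.

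With the replicate number as a block, counts were 23, 6 and 16 at 8, 24 and 48 h against control, 22 at 24 h against 8 h, 9 at 48 h against 24 h, 31 at 48 h against 8 h and 34 in the F test. The block changed 3 calls, PSMD6 at 24 h against control (adjusted p = 0.031, against 0.0756 without it), PSMC4 at 48 h against control and PSMG4 at 24 h against 8 h (0.0533 with it). Of 36 settings of an array against another group, 14 matched best with the own number.

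Of 75 results for single members, 59 were called, 27 of them under every alternative run, 32 were lost under at least 1, and 0 reversed. Uncalled differences from control changed sign for 6 of these. They were PSMB8 at 24 h (-0.0079 with array weights, -0.023 to 0.068 without single arrays), PSME4 at 24 h (-0.040 with weights, -0.0038 with quantile normalization, -0.048 to 0.064 without single arrays), PSME1 at 48 h (-0.0069 with weights, -0.0040 with centring, -0.017 to 0.018 without single arrays), PSME4 at 48 h (0.073 with weights, -0.056 to 0.094 without single arrays), PSME2 at 48 h (0.031 with quantile normalization, -0.039 to 0.011 without single arrays) and PSME3 at 48 h (-0.11 to 0.00043 without single arrays). Absolute signal is unknown, so how far background limits a member was not measured.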
